A study of Mus musculus with 8 samples.

Results

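Neutrophils sorted from the inflamed spinal cord of mice were compared at ZT13 and at ZT1 for 10 temperature-responsive genes. These were the cold-inducible RNA-binding protein genes Rbm3 and Cirbp, and 8 heat shock genes: Hspa1a, Hspa1b, Hspa8, Hsp90aa1, Hsp90ab1, Hsph1, Dnajb1 and Hspd1. They are 10 of the 23369 genes in the deposited count table, and all 10 were among the 12610 genes that passed the filter on low counts. The genes were picked by name, chosen by their known response to cold or heat and with their log2 fold changes between the time points in these libraries already known. Their levels at ZT13 and ZT1 are therefore given as a description, and the tests that include them lend no support to it.

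The ZT13 group held 4 libraries and the ZT1 group held 4 libraries, each of Ly6G+ cells within the CD45+CD11b+ gate. ZT, zeitgeber time, counts the hours from lights-on. All mice were C57BL/6N and had EAE, experimental autoimmune encephalomyelitis, in which the immune system is made to attack brain and spinal cord as a model of multiple sclerosis. Both groups thus share the strain, the disease and the digestion of the cord before the sort, and no group without EAE was analysed here. The sources used here do not give age, sex, the lighting schedule or the stage of disease. The protocol counts sorted cells per mouse, but the labels give no animal identifiers, and if libraries shared an animal the spread between them would be partly technical. In bulk RNA, fewer cells of a type and less RNA per cell cannot be told apart.

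RBM3 and CIRBP bind RNA, and mild cooling of mammalian cells raises their transcripts and proteins. Heat shock proteins are chaperones that hold, fold or refold other proteins. On heating, or when misfolded proteins build up, heat shock factor HSF1 binds heat shock elements in DNA, which are repeats of the letters GAA and their complement TTC, and drives transcription of the stress-inducible members. In mice, body temperature is higher in the dark phase, when the animals are active, and in mouse tissues and cultured cells the transcripts of Cirbp and of several heat shock genes follow daily temperature cycles. No body temperature was analysed here.

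DNA before RefSeq starts is shown for the members with a match to a heat shock or cold motif, since both gene groups are known through such elements. Promoter windows of 250 bases before a RefSeq start (build GRCm38.p6) were at hand for 6 of the 10 genes, namely Cirbp, Hspa1a, Hspa1b, Hsph1, Dnajb1 and Hspd1. They were searched on both strands for GAANNTTC and TTCNNGAA, each a facing pair of heat shock element units, and for TCCCCGCC, described in the mouse Cirbp promoter as a mild-cold responsive element. Each sequence runs 5′ to 3′ on the strand of its gene, is cut before any annotated exon in Cirbp, and has the matches in capitals.
Cirbp chr10:80167589-80167777, plus strand: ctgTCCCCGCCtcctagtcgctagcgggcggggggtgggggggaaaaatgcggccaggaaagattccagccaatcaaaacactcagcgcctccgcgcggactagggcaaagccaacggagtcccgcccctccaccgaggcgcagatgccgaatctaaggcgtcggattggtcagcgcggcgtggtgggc
Hspa1a chr17:34972157-34972406, minus strand: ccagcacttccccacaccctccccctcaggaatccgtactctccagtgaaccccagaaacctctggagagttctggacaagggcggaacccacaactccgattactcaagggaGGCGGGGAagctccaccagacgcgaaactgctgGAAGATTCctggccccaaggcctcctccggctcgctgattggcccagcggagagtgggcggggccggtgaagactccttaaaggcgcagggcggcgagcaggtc
Hspa1b chr17:34959239-34959488, minus strand: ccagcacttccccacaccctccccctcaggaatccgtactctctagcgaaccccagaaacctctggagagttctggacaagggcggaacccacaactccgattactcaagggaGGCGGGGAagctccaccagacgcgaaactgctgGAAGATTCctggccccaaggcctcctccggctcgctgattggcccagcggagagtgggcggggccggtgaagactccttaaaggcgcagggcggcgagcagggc
Hsph1 chr5:149636356-149636375, minus strand: gaatctTTCTCGAAggctcg
Hspd1 chr1:55088053-55088082, minus strand: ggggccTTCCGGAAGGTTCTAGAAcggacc

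The first of 2 Cirbp windows held TCCCCGCC at positions -247 to -240 from its RefSeq start. That start lies 1854 bases downstream of the GENCODE start of the gene, so the stretch printed is inside the annotated gene, outside its exons, and the second window held no match. Hspa1a and Hspa1b held the same matches, GAANNTTC at -104 to -97 and the reverse complement of TCCCCGCC at -137 to -130. Over all 250 bases the promoters of the HSP70 gene pair differed at 3 positions, C44T, T47C and T249G, counted from the 5′ end with the Hspa1a base first. In Hsph1 the match TTCNNGAA, which both of its overlapping windows held, stood 33 to 26 bases before the RefSeq start used, which is 8 to 15 bases into an exon of a longer GENCODE transcript. In Hspd1 the short stretch lay before an alternative RefSeq start and inside an annotated exon, and its 3 matches of both heat shock motifs overlap each other. The Hspd1 window before the GENCODE start held no match. Neither window of Dnajb1 held a match. Of all 32536 windows of this length, 6.72% held GAANNTTC, 7.19% held TTCNNGAA, 12.9% held either, and 4.68% held TCCCCGCC. The matches describe letters in these windows and say nothing on binding in these cells.

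Depth was ample for the 10 genes. Totals per library ran from 46152067 to 67873023 counts, and the lowest count of any of the 10 genes in any library was 441 (Hsph1). Levels are CPM, counts scaled to a common library size with TMM factors, which correct for differences in library composition. The ZT13 libraries held counts for fewer genes, 13945 to 15751 against 15760 to 17701 in the ZT1 libraries. ZT13 replicate 3 stood apart from the other 7 libraries on the first principal component (30.4% of the variance), so values without it are given below. ZT13 replicates 1 and 4 stood apart on the second component, with scores of 78.6 and -92.1 against -3.8 to 8.62 in the other 6 libraries. All 10 neutrophil markers had counts in every library, and their summed level was 162313 to 208960 CPM at ZT13 and 123869 to 159743 CPM at ZT1. The sums were without overlap, but 0 of the 10 single markers were. Of the 10 markers, 9 had a positive log2 fold change and 1, Csf3r, a negative one, against 47.7% positive over all genes tested. Their median was 0.34. S100a8 (log2 fold change 0.63), S100a9 (0.60) and Ngp (0.34) had higher means at ZT13, and Ltf differed by 0.03. Csf3r averaged 1559 ± 130 CPM at ZT13 and 1904 ± 230 CPM at ZT1 (-0.29 ± 0.11).

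Rbm3 (ENSMUSG00000031167.17, chromosome X, GRCm38 positions 8138975 to 8145880) had 75.9, 72.6, 84.4 and 75.5 CPM in the ZT13 libraries, against 47.4, 56.4, 54.2 and 48.2 CPM in the ZT1 libraries. Every ZT13 library lay above every ZT1 library, with a gap between the groups wider than the range within either. The mean was 77.1 ± 5.08 CPM at ZT13 and 51.6 ± 4.43 CPM at ZT1 (SD, n = 4 each), and ZT13 over ZT1 gave 0.58 ± 0.11 (SE) on the log2 scale. Leaving out each library in turn gave 0.53 to 0.62, the lowest without ZT13 replicate 3. Its protein is known to aid translation in cooled cells. GENCODE M21 lists all 10 genes as protein-coding.

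Cirbp (ENSMUSG00000045193.14, chromosome 10, positions 80165985 to 80172786) encodes the other cold-inducible protein, which binds RNA in the nucleus and, under stress, in the cytoplasm. It had 33.2, 26.4, 21.4 and 20.3 CPM in the ZT13 libraries, against 14.6, 19.96, 16.2 and 19.3 CPM in the ZT1 libraries. The groups did not overlap, but the lowest ZT13 library and the highest ZT1 library were less than 1 CPM apart. ZT13 replicate 1 was the highest of all libraries. The mean was 25.3 ± 5.85 CPM at ZT13 and 17.5 ± 2.53 CPM at ZT1, a log2 fold change of 0.53 ± 0.20, which was 0.38 without ZT13 replicate 1 and 0.60 without ZT13 replicate 3.

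The ratio of Rbm3 to Cirbp ran from 2.29 to 3.94 at ZT13 and from 2.50 to 3.35 at ZT1, with the ZT1 range inside the ZT13 range. The libraries thus did not keep the same order for the pair: ZT13 replicate 3 was the highest for Rbm3 and the third of the ZT13 libraries for Cirbp, while ZT13 replicate 1 was far above the others for Cirbp alone.

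**Figure D1:**
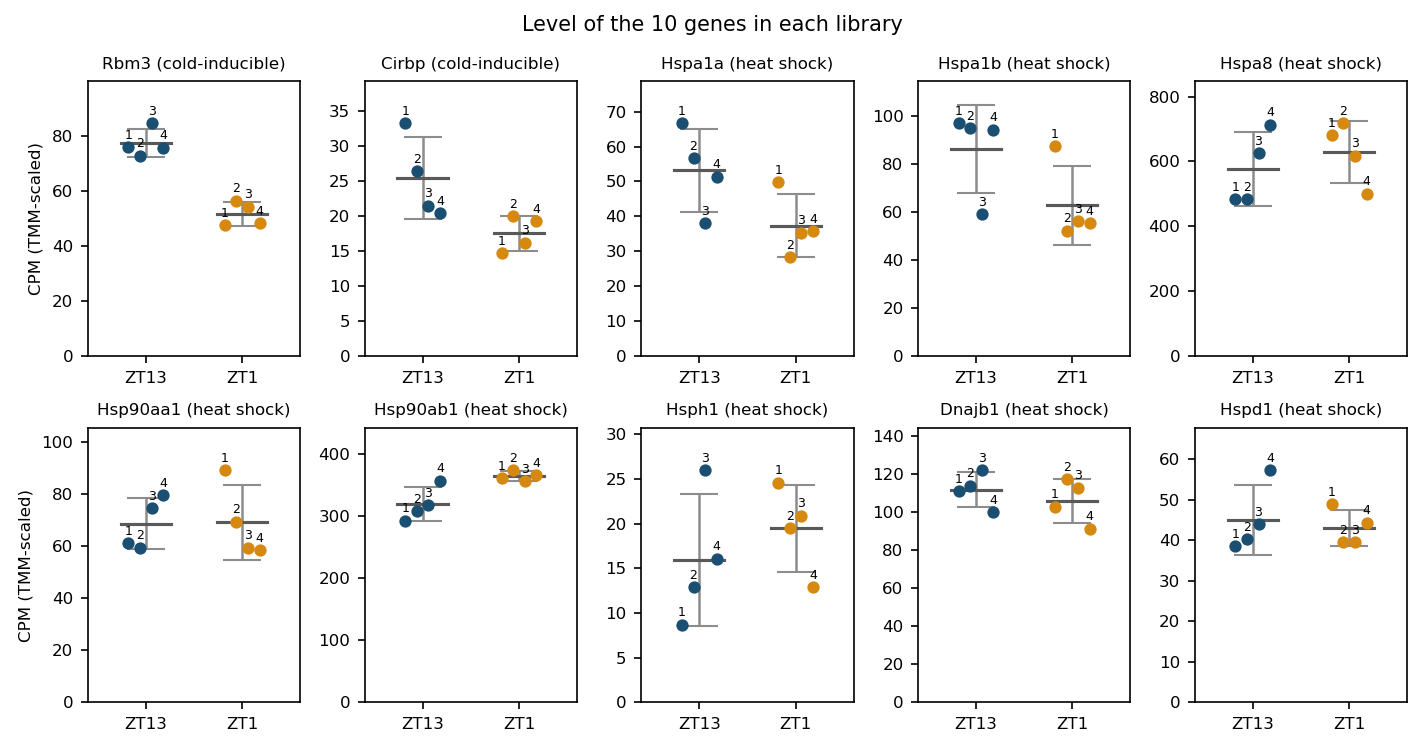
Level of each of the 10 genes in CPM (y axis, from 0, scaled separately per gene) in the 4 ZT13 libraries (left, blue) and the 4 ZT1 libraries (right, orange). Points are libraries with their replicate number, the horizontal line is the mean and the bars are the SD. The groups are apart for Rbm3 (72.6 to 84.4 against 47.4 to 56.4 CPM) and, narrowly, for Cirbp, and overlap for the 8 heat shock genes.

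Among the heat shock genes, the stress-inducible HSP70 genes had the largest positive differences. Hspa1a (ENSMUSG00000091971.4, positions 34969190 to 34972156) and Hspa1b (ENSMUSG00000090877.4, positions 34956436 to 34959238) are neighbouring genes on chromosome 17 without introns that encode nearly the same protein, the main HSP70 made on heat stress. Hspa1a had 66.6, 56.7, 38.0 and 51.4 CPM in the ZT13 libraries, against 49.8, 28.3, 35.3 and 35.8 CPM in the ZT1 libraries. Hspa1b had 97.0, 94.97, 59.0 and 94.4 CPM in the ZT13 libraries, against 87.4, 52.3, 56.3 and 55.3 CPM in the ZT1 libraries. In both genes the groups overlapped through the same libraries, ZT13 replicate 3, the lowest at ZT13, and ZT1 replicate 1, the highest at ZT1.

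The log2 fold change was 0.51 ± 0.21 for Hspa1a, with means of 53.2 ± 11.95 CPM at ZT13 and 37.3 ± 9.01 CPM at ZT1. It was 0.46 ± 0.21 for Hspa1b, with means of 86.4 ± 18.3 CPM at ZT13 and 62.8 ± 16.5 CPM at ZT1. Without ZT13 replicate 3 these values were 0.64 and 0.60. The genes share much sequence: 58.8% of the 50-base windows in the Hspa1a transcripts, the length of the reads, also occur in Hspa1b. Their split is therefore uncertain, and with the counts of both summed the log2 fold change was 0.48. The summed level was 163.7, 151.7, 97.0 and 145.8 CPM in the ZT13 libraries, against 137.3, 80.7, 91.6 and 91.2 CPM in the ZT1 libraries. The ratio of Hspa1a to Hspa1b stayed within 0.544 to 0.687 at ZT13 and 0.541 to 0.647 at ZT1.

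Hspa8 (ENSMUSG00000015656.18, chromosome 9, positions 40800984 to 40810087), the constitutive HSP70 of the cytosol that folds new proteins and uncoats clathrin vesicles, was the most abundant of the 10 genes. It had 483, 484, 625 and 714 CPM in the ZT13 libraries, against 681, 718, 618 and 501 CPM in the ZT1 libraries. The groups covered nearly the same range, and ZT13 replicates 1 and 2, the highest for the summed Hspa1a and Hspa1b, were the lowest for Hspa8. The mean was 576 ± 114 CPM at ZT13 and 629 ± 94.9 CPM at ZT1, a log2 fold change of -0.13 ± 0.16. It was -0.25 without ZT13 replicate 4, -0.17 without ZT13 replicate 3 and -0.05 without ZT13 replicate 1.

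Hsp90aa1 (ENSMUSG00000021270.14, chromosome 12, positions 110690605 to 110702728) encodes the inducible form of cytosolic HSP90, a chaperone of kinases and steroid receptors, and Hsp90ab1 (ENSMUSG00000023944.15, chromosome 17, positions 45567775 to 45573271) the constitutive form. Hsp90aa1 had 61.1, 59.3, 74.4 and 79.3 CPM in the ZT13 libraries, against 89.1, 69.2, 59.3 and 58.4 CPM in the ZT1 libraries. Its log2 fold change was -0.01 ± 0.16, and its sign was positive in 6 of 18 alternative settings, so no direction is given for it. Leaving out each library in turn gave -0.09 to 0.14, with -0.05 without ZT13 replicate 3. Hsp90ab1 had 292, 308, 318 and 357 CPM in the ZT13 libraries, against 361, 374, 357 and 366 CPM in the ZT1 libraries. ZT13 replicates 1 to 3 lay below all ZT1 libraries, and replicate 4 stood just above the lowest ZT1 library. The mean of Hsp90ab1 was 319 ± 27.5 CPM at ZT13 and 364 ± 7.67 CPM at ZT1, a log2 fold change of -0.19 ± 0.08, negative in all 18 alternatives and also -0.19 without ZT13 replicate 3.

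Hsph1 (ENSMUSG00000029657.16, chromosome 5, positions 149614287 to 149636376) encodes HSP110, a nucleotide exchange factor that acts with HSP70. It varied most: 8.69, 12.9, 26.03 and 16.1 CPM in the ZT13 libraries, against 24.6, 19.5, 20.9 and 12.9 CPM in the ZT1 libraries. The highest and the lowest of all 8 libraries were both ZT13 libraries. The log2 fold change of Hsph1 was -0.29 ± 0.33, and it moved to -0.64 without ZT13 replicate 3 and to -0.09 without ZT13 replicate 1.

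Dnajb1 (ENSMUSG00000005483.11, chromosome 8, positions 83608193 to 83612653) encodes HSP40, the J-protein that hands substrates to HSP70. It had 111, 114, 122 and 99.8 CPM in the ZT13 libraries, against 103, 117, 113 and 91.2 CPM in the ZT1 libraries, with a log2 fold change of 0.08 ± 0.11, which was 0.03 without ZT13 replicate 3 and 0.01 without ZT1 replicate 4. Hspd1 (ENSMUSG00000025980.15, chromosome 1, positions 55077835 to 55088243) encodes HSP60, the chaperonin of the mitochondrial matrix. It had 38.5, 40.2, 44.0 and 57.4 CPM in the ZT13 libraries, against 48.8, 39.6, 39.6 and 44.3 CPM in the ZT1 libraries. In both genes the libraries of the time points were interleaved. The log2 fold change of Hspd1 was 0.06 ± 0.15, with the opposite sign in 2 of 18 alternative settings. It was 0.07 without ZT13 replicate 3 and -0.08 without ZT13 replicate 4.

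Taken by calls, edgeR's quasi-likelihood test with Benjamini-Hochberg adjustment put 0 of the 10 genes under an adjusted p of 0.05, as it did for 0% of all genes tested, with adjusted p from 0.246 (Rbm3) to 0.992 (Hsp90aa1). At an unadjusted p under 0.05 stood 4 of the 10, against 9.2% of all genes. Rbm3, Cirbp and Hspa1a were the 3 higher at ZT13, against 4.35% of all genes, and Hsp90ab1 the 1 lower, against 4.85%. DESeq2 called 1 of the 10, Rbm3, against 0.936% of the same genes, and 1.13% when fitted to all genes with a count. limma-voom called 0 genes in all, with 1500 at an unadjusted p under 0.05. The groups did not overlap for 2 of the 10, Rbm3 and Cirbp, against 5.66% of all genes tested, or 2.66% with the ZT13 libraries higher. Nothing is read from these counts, since the genes were chosen with this contrast known.

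**Figure D2:**
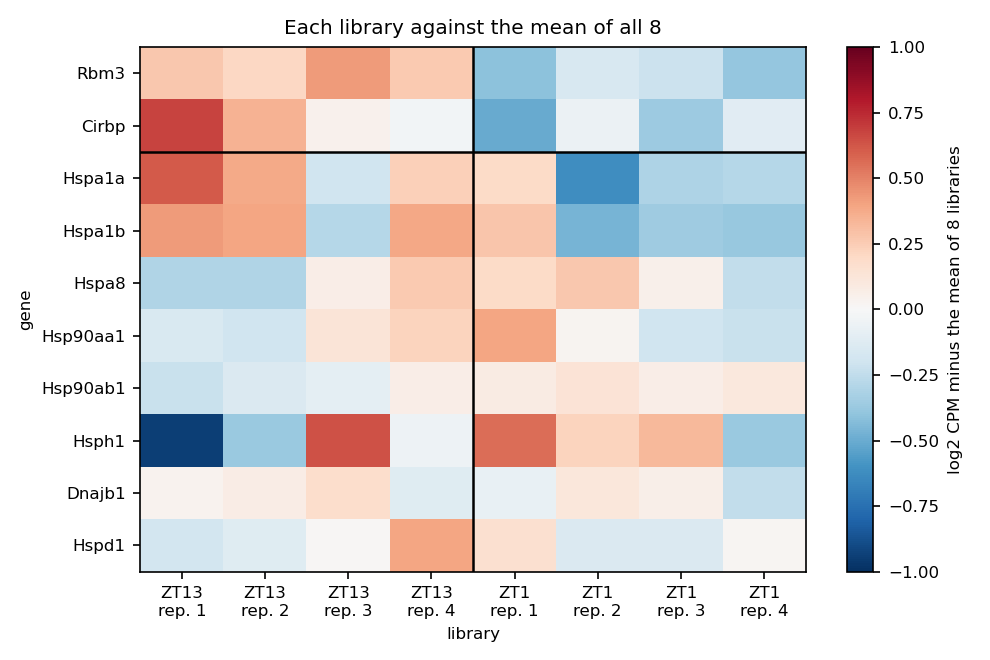
Log2 CPM of each gene (rows) in each library (columns, ZT13 left of the vertical line, ZT1 right) minus the mean of the 8 libraries, red for above and blue for below the mean. The cold-inducible rows are above the horizontal line. Rbm3 is above its mean in the 4 ZT13 libraries and below it in the 4 ZT1 libraries, as is Cirbp but for ZT13 replicate 4, which lies at about its mean, Hspa1a and Hspa1b share 1 low ZT13 library and 1 high ZT1 library, and Hsph1 ranges widest within ZT13.

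Set against each other within a library, the cold-inducible genes stood higher relative to the heat shock genes at ZT13. The mean log2 CPM of Rbm3 and Cirbp minus that of the 8 heat shock genes was -0.71, -0.96, -1.09 and -1.33 in the ZT13 libraries, against -1.95, -1.33, -1.50 and -1.32 in the ZT1 libraries. The groups overlapped through ZT13 replicate 4. The mean was -1.03 ± 0.26 at ZT13 and -1.52 ± 0.30 at ZT1 (SD, n = 4 each), a difference of 0.50 on the log2 scale. The cold-inducible mean was 5.45 ± 0.15 at ZT13 and 4.90 ± 0.14 at ZT1, apart by 0.55 and without overlap. The heat shock mean was 6.48 ± 0.12 at ZT13 and 6.43 ± 0.18 at ZT1, apart by 0.05. Leaving out each library in turn gave differences of 0.36 to 0.60, the lowest without ZT1 replicate 1, and 0.52 without ZT13 replicate 3.

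Ratios of single genes need no scaling between libraries. The ratio of Rbm3 to Hspa8 was 0.157, 0.150, 0.135 and 0.106 in the ZT13 libraries, against 0.0697, 0.0786, 0.0877 and 0.0962 in the ZT1 libraries. These groups did not overlap. The ratio of summed Hspa1a and Hspa1b to Hspa8, inducible over constitutive HSP70, was 0.339, 0.314, 0.155 and 0.204 in the ZT13 libraries, against 0.202, 0.112, 0.148 and 0.182 in the ZT1 libraries. ZT13 replicates 1 and 2 stood above all others in this ratio, while ZT13 replicate 3 lay within the ZT1 range.

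**Figure D3:**
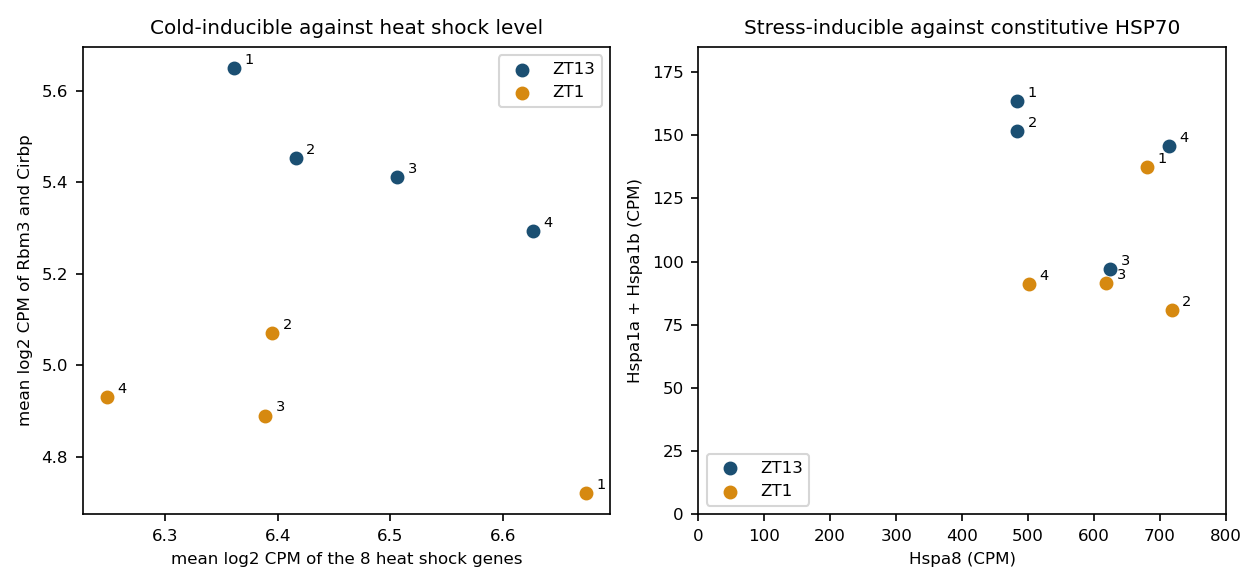
Left, mean log2 CPM of Rbm3 and Cirbp (y axis) against that of the 8 heat shock genes (x axis). Right, summed CPM of Hspa1a and Hspa1b (y axis) against Hspa8 (x axis). Each point is a library with its replicate number, ZT13 in blue and ZT1 in orange. On the left the ZT13 libraries all lie higher on the cold-inducible axis and the time points mix on the heat shock axis, while on the right 2 ZT13 libraries, replicates 1 and 2, combine high summed HSP70 (163.7 and 151.7 CPM) with low Hspa8.

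By length, the order of the 10 genes was led by constitutive chaperones at both time points. The length counts every annotated exon base of a gene, which can exceed the transcript made in these cells. Reads shared with other genes may also have been lost, so the order is approximate. Per kilobase of exon, Hspa8 stood at 134 ± 26.4 CPM at ZT13 and 146 ± 22.1 CPM at ZT1, and Hsp90ab1 at 106 ± 9.17 and 121.5 ± 2.56 CPM per kilobase in the same order of time points. These levels overlap with each other within their spread at ZT13. Dnajb1 followed, at 34.9 ± 2.89 CPM per kilobase at ZT13 and 33.1 ± 3.61 at ZT1, and Hspa1b came next, at 30.8 ± 6.51 and 22.4 ± 5.88. The neighbours Hspa1a, Hsp90aa1, Hspd1 and Rbm3 lay within 16.4 to 17.9 CPM per kilobase at ZT13 and could not be ordered beyond their spread. At ZT1 Rbm3 stood at 10.97 ± 0.94 CPM per kilobase, below Hsp90aa1 (17.6 ± 3.64) and Hspd1 (16.3 ± 1.68). Cirbp (9.73 ± 2.25 at ZT13, 6.72 ± 0.97 at ZT1) and Hsph1 (2.19 ± 1.02 at ZT13, 2.68 ± 0.67 at ZT1) were the lowest at both time points.

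Some members share reads with other genes that the counting could split, and the sources used here do not say how such reads were treated. Of the 50-base windows in the transcripts, 39.4% in Hspa8, 47.5% in Hsp90aa1 and 42.1% in Hspd1 also occur in another annotated gene, mostly a processed copy. The copies in the table held few counts, at most 178 for Gm15459 (Hspa8), 23 for Gm12346 (Hsp90aa1) and 11 for Hspd1-ps3 (Hspd1). In Rbm3 the share was 9.71%, in Hsp90ab1 3.44% and in Dnajb1 0.412%, and in Cirbp and Hsph1 it was 0. The kit does not mark the strand, so reads of the antisense gene Rbm3os (at most 28 counts) cannot be told from those of Rbm3, nor those of Hspe1 (309 to 560 counts) from those of Hspd1 where their exons overlap. The same holds for Hspa1a, whose exons overlap those of Gm20481, a protein-coding gene on the other strand without a row of counts. Exons of Hspa8 overlap 3 small nucleolar RNA genes on the same strand, also without counts.

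Other chaperone genes were followed as a wider list of 74 genes outside the 10, of which 70 were in the table and 63 were tested. In edgeR 0 of the 63 passed, as in DESeq2. At an unadjusted p under 0.05 stood 7 of the 63, against 9.2% of all genes tested, and all 7 were lower at ZT13, against 4.85%. Among the 10 genes 6 had a positive log2 fold change, against 47.7% of all genes tested. Of the 63, 42 (66.7%) had a negative log2 fold change, against 52.3% of all genes tested, and the median was -0.08, against -0.02 over all genes tested. Only 1 of the 63, Chordc1, had no overlap between the groups, with the ZT13 libraries lower, against 3% of all genes tested. The smallest adjusted p was 0.491.

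The HSP70 and HSP110 relatives had 2 genes higher and 7 lower at ZT13. Hspa5, or BiP, the HSP70 of the endoplasmic reticulum, exceeded Hspa8 per length, at 197.5 ± 39.6 CPM per kilobase at ZT13 and 220 ± 18.1 at ZT1. That order is uncertain, since 39.4% of the Hspa8 windows also occur in other genes and the treatment of such reads is not given. Hspa9, the mitochondrial HSP70, stood at 37.2 ± 7.66 CPM at ZT13 and 50.5 ± 7.13 CPM at ZT1 (log2 fold change -0.44 ± 0.17), Hspa14 at 40.5 ± 8.88 and 50.4 ± 4.03 CPM (-0.32 ± 0.16) and Hspa4 at 103.5 ± 12.1 and 118.5 ± 11.0 CPM (-0.20 ± 0.11). Of the HSP90 relatives, Hsp90b1 of the endoplasmic reticulum stood at 210 ± 40.9 CPM at ZT13 and 271 ± 44.4 CPM at ZT1 (-0.37 ± 0.16), and mitochondrial Trap1 at 23.4 ± 13.1 and 23.6 ± 4.98 CPM.

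Of 14 J-proteins other than Dnajb1, 2 had positive and 12 negative values, and their median was -0.07. Dnajb11, a partner of BiP, had the highest mean per length, at 36.15 ± 5.68 CPM per kilobase at ZT13 and 37.6 ± 1.29 at ZT1. Dnaja2, at 33.9 ± 0.50 and 37.0 ± 2.68, could not be ordered against it beyond their spread. Dnajc3, an inhibitor of the kinase PERK, stood at 91.7 ± 5.72 CPM at ZT13 and 113 ± 16.9 CPM at ZT1 (-0.31 ± 0.12), and Dnaja3 of mitochondria at 10.1 ± 3.68 and 15.5 ± 4.34 CPM (-0.62 ± 0.30). Dnaja4 had no count in 3 ZT13 libraries and in 1 ZT1 library, and no fold is given for it.

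Of 17 co-chaperones, 5 had positive and 12 negative values, with a median of -0.10. Chordc1, an HSP90 co-chaperone, had 27.2 to 35.0 CPM at ZT13, against 36.9 to 50.0 CPM at ZT1 (-0.45 ± 0.15). Bag3, a heat-inducible partner of HSP70 in autophagy, averaged 10.2 ± 2.60 CPM at ZT13 and 16.2 ± 3.34 CPM at ZT1 (-0.67 ± 0.24), with a narrow overlap. The cyclophilin Ppid had 12.7 to 15.2 CPM at ZT13, against 14.5 to 24.8 CPM at ZT1 (-0.48 ± 0.19). Bag1, the most abundant per length, went the other way, with 88.2 to 116 CPM at ZT13 and 82.7 to 94.6 CPM at ZT1 (0.18 ± 0.11).

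The mitochondrial chaperones and proteases other than Hspd1 had 5 positive and 2 negative values and a median of 0.17. Grpel1, the exchange factor of mitochondrial HSP70, stood at 42.7 ± 5.65 CPM at ZT13 and 34.4 ± 5.26 CPM at ZT1 (0.31 ± 0.15), and the protease subunit Clpp at 8.02 ± 2.45 and 5.61 ± 1.64 CPM (0.51 ± 0.31). Hspe1, the HSP10 lid of HSP60, stood at 8.55 ± 1.66 CPM at ZT13 and 6.53 ± 2.07 CPM at ZT1 (0.39 ± 0.28). The 8 subunits of the cytosolic chaperonin CCT divided into 4 positive and 4 negative values with a median of 0.00. Cct5, the most abundant per length, stood at 127 ± 9.33 CPM at ZT13 and 123 ± 5.62 CPM at ZT1. At ZT1 its lead per length over Cct8 was within the spread (44.3 ± 2.03 and 43.95 ± 3.09 CPM per kilobase). By CPM Cct7 was higher than Cct5, at 138 ± 21.8 CPM at ZT13 and 136 ± 9.44 CPM at ZT1.

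Small heat shock proteins were low, and Hspb6, with the highest value among them, reached 5.04 CPM in 1 ZT13 library. Hspb1, or HSP25, a strongly heat-inducible gene in other cells, had at most 32 counts in any library and no count in 1 library of each time point. Cryab was listed at 0 in the 4 ZT13 libraries and had up to 0.566 CPM at ZT1, and a count of 3, the limit that a count of 0 allows, corresponds to 0.0511 to 0.0674 CPM in the ZT13 libraries. These limits cover counting error only.

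The heat shock factor gene Hsf1 stood at 17.7 ± 2.01 CPM at ZT13 and 18.4 ± 3.69 CPM at ZT1 (log2 fold change -0.06 ± 0.19). Hsf2 had 0.141 to 2.42 CPM at ZT13 and 0.682 to 1.53 CPM at ZT1. Hsbp1, which encodes a small binding protein of HSF1, stood at 82.6 ± 7.85 CPM at ZT13 and 67.1 ± 12.2 CPM at ZT1 (0.30 ± 0.14). HSF1 is controlled mainly as a protein, which RNA does not show.

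CLK kinases change splicing with small shifts in body temperature, and Hnrnph1 encodes a splicing regulator. All 5 genes of this list had negative log2 fold changes, with a median of -0.30, and 0 passed in edgeR or in DESeq2, with 0 at an unadjusted p under 0.05. Clk1, the most abundant, had 151 to 233 CPM at ZT13, against 157 to 245 CPM at ZT1. Clk2 had 15.1 to 21.5 CPM at ZT13, against 18.5 to 30.8 CPM at ZT1 (-0.37 ± 0.20), and the groups overlapped.

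**Figure D4:**
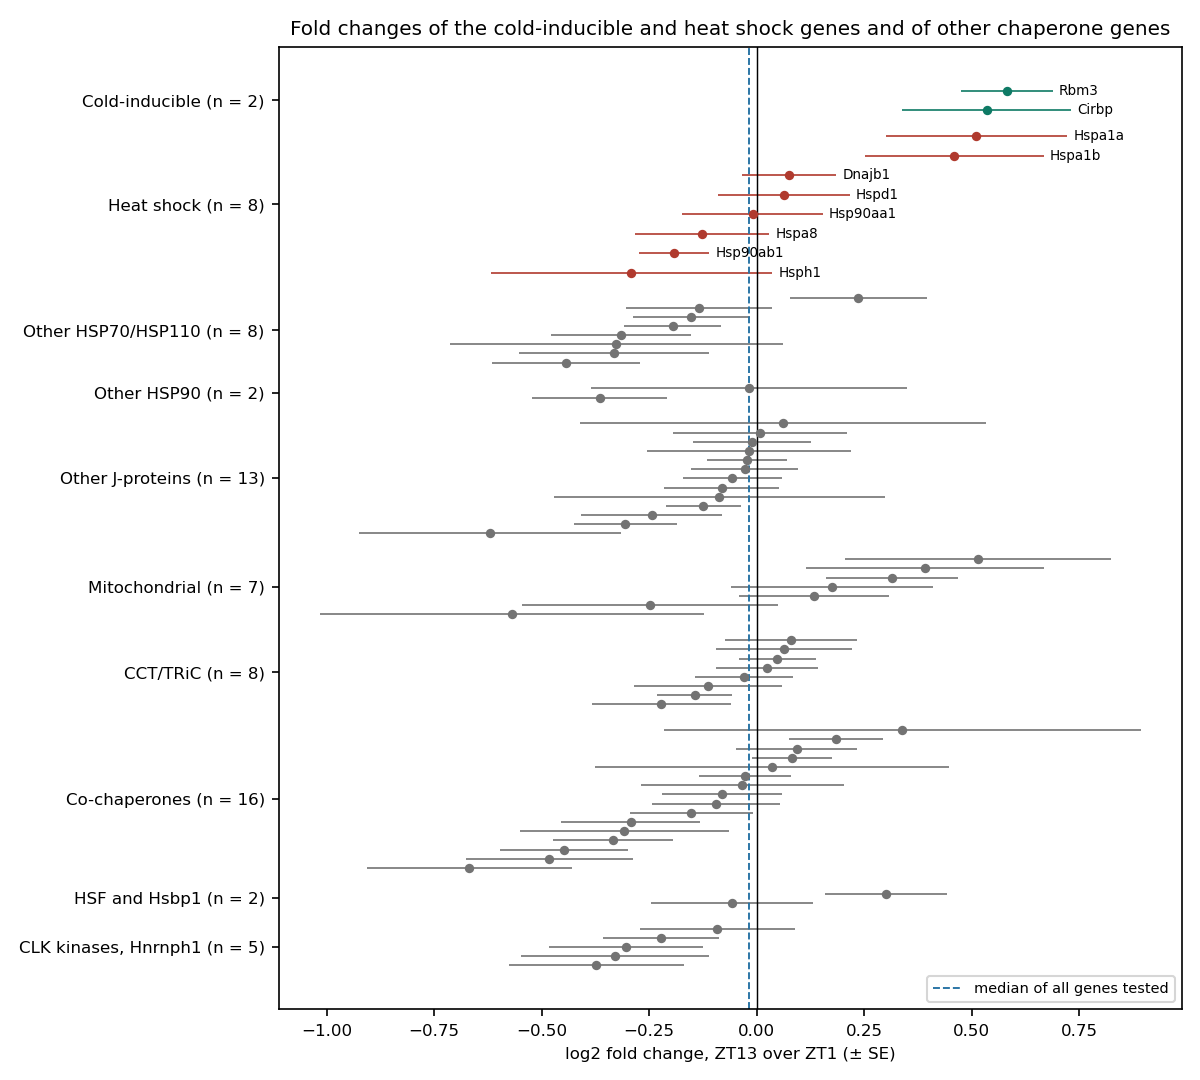
Log2 fold change of ZT13 over ZT1 (x axis; bars are the SE) for the 2 cold-inducible and 8 heat shock genes (named) and for the tested genes of 8 families of other chaperone and temperature-linked genes (grey). The dashed line is the median of all genes tested (-0.02), and 4 genes with an SE above 0.6 and the small heat shock proteins are not drawn. Rbm3, Cirbp, Hspa1a and Hspa1b lie between 0.46 and 0.58, while most HSP70, J-protein and co-chaperone relatives lie below 0.

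Values that moved with the time points, or between libraries, are set beside these results, and their part in them was not tested. Immediate early genes can be induced by tissue digestion, as some heat shock genes can. The 13 on the list summed to 12282, 7225, 5938 and 8979 CPM in the ZT13 libraries, against 7643, 10566, 10520 and 9156 CPM in the ZT1 libraries, and 0 passed in edgeR or in DESeq2. ZT13 replicate 1 was the highest in this sum, as in Hspa1a, Hspa1b and Cirbp, and ZT13 replicate 3 the lowest of all, while ZT1 replicate 1, high in Hspa1a and Hspa1b, was the lowest at ZT1. Fos, with the highest mean of them per length, had 868 to 3181 CPM at ZT13 and 1511 to 2324 CPM at ZT1. Per kilobase it stood at 812 ± 446.5 CPM at ZT13 and 808 ± 143 at ZT1, within the spread of Junb (691 ± 166 and 768 ± 175).

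Markers of other cells were low beside the neutrophil markers, and their part in the results was not tested. The 14 markers of microglia and macrophages, which the Ly6G gate would remove, summed to 591 to 954 CPM at ZT13 and 711 to 1044 CPM at ZT1, led by Csf1r, with Mertk, Sall1 and Ms4a7 at 0 in some libraries. The 7 markers of monocytes and dendritic cells summed to 1455 to 1869 CPM at ZT13 and 1258 to 1686 CPM at ZT1, led by Ly6c2, with Ccr7, Xcr1 and Cd209a at 0 in some libraries. Ly6c2 made up most of the sum (means of 1166 CPM at ZT13 and 835 CPM at ZT1). Whether its reads came from monocytes or from the sorted neutrophils was not tested. Genes of this list differed in sign: Ly6c2 had 1105 to 1298 CPM at ZT13 and 679 to 1048 CPM at ZT1, without overlap, with an adjusted p of 0.0395 in DESeq2 and 0.403 in edgeR, while Ccr2 averaged 382 ± 91.2 CPM at ZT13 and 506 ± 50.0 CPM at ZT1 (log2 fold change -0.41 ± 0.16). B cell markers summed to 2.77 to 5.28 CPM at ZT13 and 1.64 to 2.28 CPM at ZT1, without overlap. T and NK cell markers summed to 8.85 to 22.2 CPM at ZT13 and 9.31 to 20.1 CPM at ZT1, led by Nkg7. Of the 5 tested genes of that list, 3 had positive and 2 negative log2 fold changes. Prf1 was listed at 0 in the 4 ZT13 libraries and had 0.28 to 0.52 CPM at ZT1, at most 38 counts. Its adjusted p was 0.049 in DESeq2 and 0.26 in edgeR. Endothelial markers summed to 9.77 to 19.4 CPM at ZT13 and 13.1 to 23.6 CPM at ZT1. Of the neural and glial markers, Mbp had 104 to 190 CPM at ZT13 and 104 to 152 CPM at ZT1, Gfap reached 0.460 CPM at ZT13 and 0.952 CPM at ZT1, and Snap25 was listed at 0 in the 4 ZT13 libraries and reached 0.0430 CPM at ZT1.

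The genes whose levels ran most alike with 3 of the members were sought among 6771 genes of 10 or more mean CPM, after removal of each time point's mean, by Pearson's r over the 8 libraries. For Rbm3 these were Cnn2 (0.97), Dnajb6 (0.97), Snx3 (0.97), Mgst2 (0.96) and Cd274 (0.96). For Cirbp they were Padi2 (0.97), Ehmt2 (0.97), Tsc22d3 (0.95), Apobec1 (0.93) and Gpd2 (0.92). For Hspa8 they were Fbxl5 (0.98), Rps28 (0.93), Slmap (0.92), Samd9l (0.92) and Srpr (0.91). No other member was among them, and Dnajb6, a J-protein, was the only gene of the wider chaperone list. The points share libraries and scaling, the search took the best of many genes, and the values are a description with no p.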

How the data were processed

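RNA of sorted neutrophils was measured in 8 libraries, 4 at ZT13 and 4 at ZT1, grouped by their titles. The authors deposited a table of raw counts of reads for each Ensembl gene identifier. Per the labels' protocols, cDNA was made with SMART-Seq v4, libraries with Nextera XT and single reads of 50 bases were sequenced, all in 1 labelled batch. The submitters' processing notes name FastQC, STAR 2.7.10b, featureCounts, Subread 2.0.3, DESeq2 1.46.0 and build GRCm38. The sources used here do not give the strand setting, the annotation or how reads matching several genes were counted. Columns were assigned by the time point and library number in the labels, and 0 columns were left unused. Of 23369 identifiers, 22222 matched GENCODE M21 without version numbers (17 with the same version), and the 1147 others held 0.125% of the counts.

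The counts entered edgeR 4.0.16 (R 4.3.3): TMM factors, genes kept by filterByExpr with a minimum count of 10 and a minimum total of 15, robust quasi-likelihood fits, and Benjamini-Hochberg adjustment over all 12610 genes with a threshold of 0.05. SEs are the log2 fold change over the root of F. CPM is scaled by the TMM factors and has no prior count, while the log2 CPM used to find genes of like pattern has a prior count of 2. The biological coefficient of variation was 0.498. The fits were tested on simulated counts with known fold changes. Those were all larger than the changes of the 10 genes, so the simulation does not show how well changes of their size are found. Alternatives were DESeq2 1.42.0, limma-voom 3.58.1, other size factors and filters, each library left out, the replicate number as a block, and Hspa1a and Hspa1b summed.

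The members, the wider lists and the alternatives were chosen with earlier results of these data known. By rule the text names the 10 members, the heat shock factors and, per list, up to 3 genes with the smallest p and the most abundant per length; not every such gene is printed. The genes most alike were the 5 with the highest correlation among those of 10 or more mean CPM. Sequences are from RefSeq, and a window is 250 bases before a start. The sum over the neural and glial markers is not reported here.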

Additional observations from a re-analysis of the deposited data

Results flagged for a closer look

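For Hspa1b, 1 library stood far from the other 3 of its group at each time point. At ZT13 replicate 3 had 59.0 CPM, against 94.4 to 97.0 CPM in the other ZT13 libraries, and the gap to the nearest took up 0.931 of the range of the group. At ZT1 replicate 1 had 87.4 CPM, against 52.3 to 56.3 CPM in the other ZT1 libraries, with a gap of 0.887 of the range. Both exceed Dixon's critical value for 4 libraries, which chance exceeds in about 1 of 20 groups, and 22 groups were examined. Hspa1a shares much sequence with Hspa1b and had the same libraries at its extremes, at 38.0 CPM in ZT13 replicate 3 and 49.8 CPM in ZT1 replicate 1, with gaps of 0.468 and 0.651. Without ZT13 replicate 3 the log2 fold change of Hspa1b was 0.60, and without ZT1 replicate 1 it was 0.66, against 0.46 with all libraries.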

How the results depend on the processing

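The number of genes called depended on the test. edgeR and limma-voom called 0 genes in every alternative run, with 781 to 2091 genes at an unadjusted p under 0.05, whereas DESeq2 called 118 of the same genes (43 higher and 75 lower at ZT13) and 256 when fitted to all genes with a count, an alternative chosen after seeing the data. The cause was not tested. Rbm3 was the only one of the 10 genes among these calls, and 0 genes of the wider chaperone list were. Leaving out each library in turn gave 0 genes called each time, 37 to 44 of the wider list with a negative log2 fold change (42 with all libraries), 3 to 5 of the 8 heat shock genes with one (4 with all libraries) and a cold-inducible minus heat shock difference of 0.36 to 0.60. Leaving out a library can hardly move a value by more than the spread between libraries. Much of the next count was therefore fixed in advance, and it does not measure how firm the values are. Of 1629 values of single genes under the alternatives, 1626 moved by less than this spread. The exceptions were Dnaja4 without ZT13 replicate 2, which leaves it with no count at ZT13 and so with no fold to give, and Hspb6 (-3.31 in limma-voom, -3.17 with the replicate block), listed at 0 in ZT13 replicate 3. Same-numbered libraries did not deviate together (correlations of 0.00, 0.00, -0.04 and 0.02 across genes), so the numbers were not taken as pairs. With the replicate number as a block, edgeR called 0 genes, and so 0 of the wider list. In that run 44 of the wider list and 3 heat shock genes had negative values, and 2 cold-inducible genes had positive values. The cold-inducible minus heat shock difference is taken from log2 CPM, which the block does not enter, so it stayed at 0.50 by construction. Scalings moved the median of all genes by at most 0.06 on the log2 scale.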
